A study of Mus musculus with 8 samples.

Results

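Cadherins are calcium-dependent adhesion proteins of the cell surface. Classical cadherins join neighbouring cells at adherens junctions and bind catenins inside the cell, whereas the giant cadherins of the Fat and Dachsous families bind each other across cell borders and feed into planar cell polarity and Hippo signaling. In the developing and adult brain they hold neuroepithelial cells, neural stem cells (NSCs) and glia together and shape how these cells orient. Described here are 10 genes: *Cdh2*, *Cdh4* and *Cdh11* (classical cadherins), *Cdh13* (a cadherin held by a lipid anchor), *Fat1*, *Fat3*, *Fat4*, *Dchs1* and *Dchs2* (giant cadherins) and *Fjx1* (a homolog of the fly Golgi kinase four-jointed, which acts on Fat and Dachsous in the fly). They were matched by symbol to 10 of the 47729 genes of the NSC count table, and all 10 were also among the 40562 genes of the astrocyte count table. The list was selected on measured values, namely the genotype differences in the counts of these same NSC and astrocyte libraries, so those differences are given below as a description and support nothing by themselves.

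RNA sequencing compared cells of mice that carry the S89G substitution of dentin matrix protein 1 (S89G-DMP1) with cells of wild type (WT) mice. The substitution is a knock-in that takes away the serine to which the protein's glycosaminoglycan chain is attached. It was made in C57BL/6J embryonic stem cells, and the selection cassette was then removed by a cross to an FLP line of a B6.129S4 background. All mice were labelled C57BL/6 and 10 weeks old, and the study's methods give both sexes and 3 months for those that gave astrocytes. NSCs were grown as neurospheres in N2 medium from the subventricular zone, with 3 libraries of S89G-DMP1 and 3 of WT. Astrocytes were grown from cortex in medium with serum, with 1 library of each genotype, so no difference between the astrocyte libraries has a replicate check. Whether the NSC triplicates came from separate mice or cultures is not stated, and the spread between them may be technical.

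The NSC libraries held between 2354615 and 2588130 counted reads, and the astrocyte libraries 14008670 (WT) and 13016924 (S89G-DMP1). The S89G substitution itself cannot be seen in counts. *Dmp1* had 18, 21 and 16 counts in WT and 6, 3 and 5 in S89G-DMP1 NSCs, and 2 and 119 in WT and S89G-DMP1 astrocytes. Chi-square values per gene between NSC libraries sharing a genotype were 1.07 to 1.51, so that none was counted as a copy of another. The lowest, 1.07 between S89G-DMP1 replicates 1 and 2, is close to what counting error alone gives. The NSC standard deviations, standard errors and adjusted p-values may therefore hold little spread beyond counting. The NSC libraries carried their label's markers, with 8 neural progenitor genes summing to 7810 to 8144 counts scaled to library size (CPM) in WT and 7977 to 8193 CPM in S89G-DMP1. The astrocyte libraries did not match each other in markers. The 8 astrocyte genes summed to 117 CPM in the WT and 1043 CPM in the S89G-DMP1 library, with *Aqp4* at 8 and 4051 counts and *Gfap* at 90 and 901 counts, whereas the 9 genes of fibroblasts and meninges summed to 6040 and 2107 CPM. *Xist* had 12172 and 74 counts and *Ddx3y* 0 and 1277 counts, so the sex of the cells also differed between the astrocyte libraries and cannot be told apart from the genotype. In the NSC libraries of both genotypes *Xist* and the Y-linked genes were all counted, without a called difference.

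**Figure D1:**
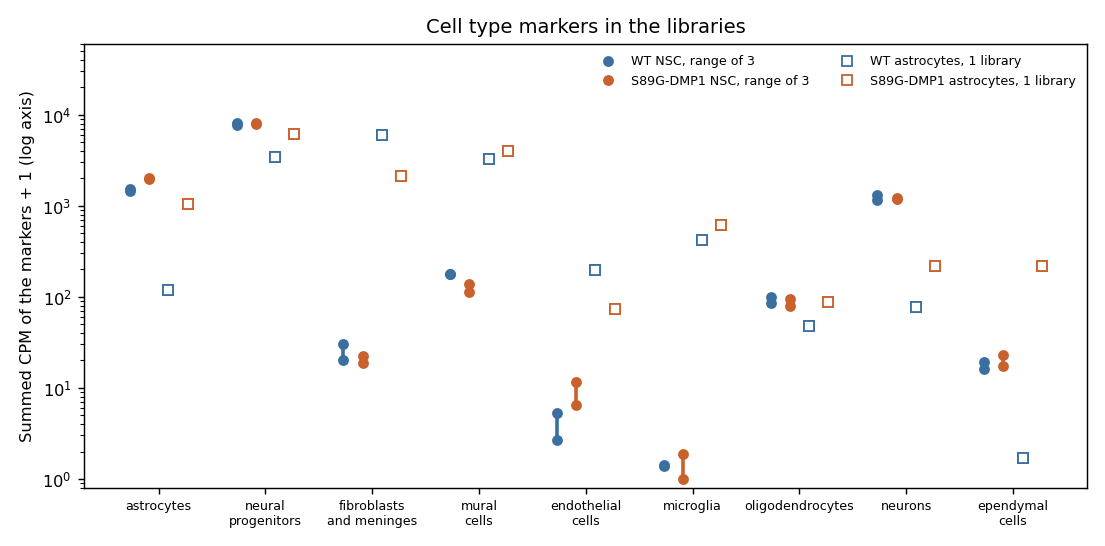
Summed CPM of each list of cell type markers, plus 1, on a log axis. Filled circles give the lowest and highest of the 3 NSC libraries of a genotype, and open squares the single astrocyte library of a genotype. The WT astrocyte library lies lowest for astrocyte markers, at 117 CPM, and highest for fibroblast and meningeal markers, at 6040 CPM.

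Upstream sequences are shown for 3 giant cadherins. *Dchs2* had the largest difference in NSCs and *Fat3* the largest of the giant cadherins in astrocytes by scaled counts. On the log2(FPKM + 1) scale of the deposited astrocyte values *Dchs1* was larger, at 3.01 against 2.23 for *Fat3*. *Fat4*, whose protein binds Dchs1, is shown for contrast, since it overlapped between the NSC genotypes. Each line gives the 250 bases before the RefSeq start site in GRCm38.p6, with letters in capitals where the GC box (GGGCGG), a TEAD site (GGAATG), a Snail E-box (CAGGTG) or a TATA box (TATAAA) was found on either strand. The *Dchs2* window is chr3:83127277-83127526 on the plus strand, the *Fat3* window chr9:16502055-16502304 on the minus strand and the *Fat4* window chr3:38886690-38886939 on the plus strand.
Dchs2: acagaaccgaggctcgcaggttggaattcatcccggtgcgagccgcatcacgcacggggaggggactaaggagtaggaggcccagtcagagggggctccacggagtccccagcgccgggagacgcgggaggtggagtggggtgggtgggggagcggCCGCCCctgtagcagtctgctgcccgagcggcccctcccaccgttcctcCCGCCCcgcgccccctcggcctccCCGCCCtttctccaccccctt
Fat3: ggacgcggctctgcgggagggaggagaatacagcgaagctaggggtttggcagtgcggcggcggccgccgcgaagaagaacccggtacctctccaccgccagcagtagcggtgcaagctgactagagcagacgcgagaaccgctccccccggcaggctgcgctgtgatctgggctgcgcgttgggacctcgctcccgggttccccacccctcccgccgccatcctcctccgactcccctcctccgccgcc
Fat4: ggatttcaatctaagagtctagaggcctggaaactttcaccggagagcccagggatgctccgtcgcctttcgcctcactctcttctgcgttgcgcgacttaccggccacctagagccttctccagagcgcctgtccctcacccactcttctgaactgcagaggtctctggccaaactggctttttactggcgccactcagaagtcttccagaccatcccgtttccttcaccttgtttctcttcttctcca
The *Dchs2* window was 72.0% G or C and held 3 GC boxes, a motif present in 32.7% of 32851 windows of that length. The *Fat3* window (70.4% G or C) and the *Fat4* window (54.8%) held none of the 4 motifs. TEAD sites, Snail E-boxes and TATA boxes were present in 12.6%, 17.2% and 12.4% of all windows. The RefSeq start site lies 421 bases upstream of the start of the *Dchs2* gene in GENCODE M21 and 769 bases upstream of that of *Fat3*, and it coincides with that of *Fat4*. These matches describe letters only, and no binding was measured. Of the 10 genes, 4 matched the promoter table, the other being *Fat1*. The *Fat1* window (chr8:44949958-44950207, plus strand, 42.0% G or C) held 1 TEAD site and 1 Snail E-box and is not printed because its RefSeq start site lies 14761 bases downstream of the gene's start in GENCODE M21.

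In NSCs, 7 of the 10 genes did not overlap between the 3 WT and 3 S89G-DMP1 libraries in CPM. Of these, 5 were lower in S89G-DMP1 (*Cdh4*, *Cdh13*, *Fat1*, *Dchs1* and *Fjx1*) and 2 higher (*Cdh11* and *Dchs2*). Among all 11194 genes tested, 16% did not overlap with S89G-DMP1 lower and 14.8% with S89G-DMP1 higher. The quasi-likelihood test of edgeR at a Benjamini-Hochberg adjusted p under 0.05 called 3 of the 10 lower (*Dchs1*, *Cdh13* and *Fat1*) and 2 higher (*Dchs2* and *Cdh11*), where 8.76% of all tested genes were called lower and 7.08% higher. Because the genes were listed with this comparison known, these shares are not read against each other. The median log2 fold change was -0.11 over the 10 genes and 0.00256 over all tested genes. All 10 passed the filter on low counts, but *Dchs2* passed it only through the S89G-DMP1 libraries, since the filter asks for 4.08 CPM in 3 libraries and no WT library reached it.

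**Figure D2:**
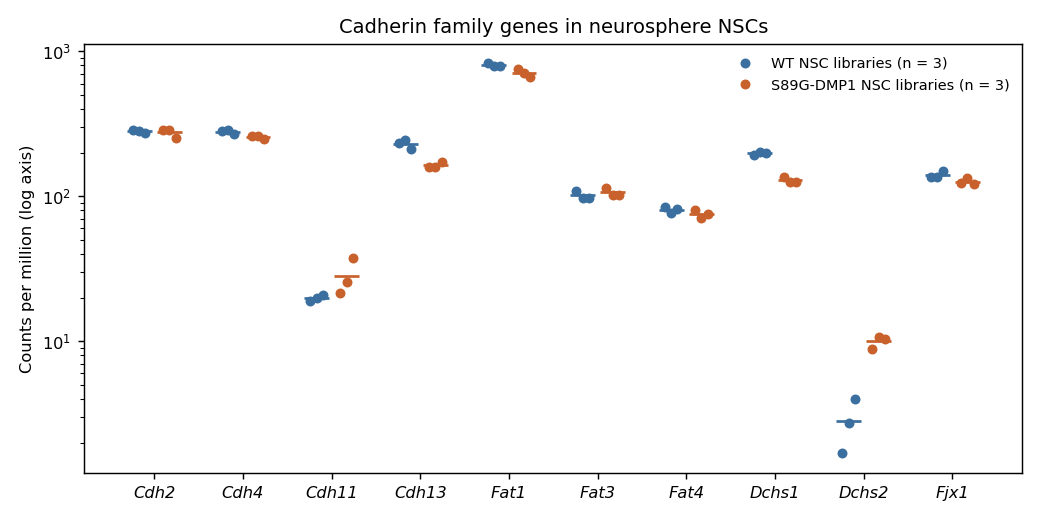
CPM of each gene in the 6 NSC libraries, on a log axis. Each point is a library and each line the mean of 3. *Dchs1*, *Cdh13* and *Dchs2* show a clear gap between WT and S89G-DMP1, while the points of *Cdh2*, *Fat3* and *Fat4* overlap.

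The Dachsous ligands went in opposite directions in NSCs. *Dchs1* (chr7:105752990-105787654, minus strand) encodes the Dachsous protein that binds Fat4 on neighbouring cells. It had 455, 518 and 502 counts in WT and 325, 295 and 315 in S89G-DMP1 NSCs. Every WT library stood above every S89G-DMP1 library, at a WT mean of 198 ± 5.28 CPM (SD, n = 3) and an S89G-DMP1 mean of 130 ± 6.11 CPM (SD, n = 3), a log2 fold change of -0.61 (standard error 0.07). *Dchs2* (chr3:83127948-83357209, plus strand), the other Dachsous gene, had 4, 7 and 10 counts in WT and 21, 25 and 26 in S89G-DMP1 NSCs. The S89G-DMP1 libraries were all higher, at 9.99 ± 1.00 CPM (SD, n = 3) against 2.80 ± 1.16 CPM (SD, n = 3), a log2 fold change of 1.81 (standard error 0.32). These counts are small, and 1299 exon bases of *Dchs2* are shared with *Gm10710* on the opposite strand, which itself had 5 counts over the 6 libraries. Leaving out any 1 library kept the log2 fold change of *Dchs1* between -0.65 and -0.59 and that of *Dchs2* between 1.56 and 2.14.

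Since both genes are counted in the same library, their ratio needs no scaling between libraries. *Dchs2* made up 0.871%, 1.33% and 1.95% of the reads on the pair in WT NSCs and 6.07%, 7.81% and 7.62% in S89G-DMP1 NSCs. The genotypes did not overlap in this share, which follows from the opposite differences of the genes given above and adds no support to them. *Dchs1* nevertheless held most of the reads in every library, with 11.8 to 15.5 reads per *Dchs2* read in S89G-DMP1 and 50.2 to 114 in WT NSCs.

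Among the Fat receptors in NSCs, *Fat1* was lower and *Fat3* and *Fat4* overlapped between genotypes. *Fat1* (chr8:44935447-45052257, plus strand), a giant cadherin that also acts on actin and cell contacts, was the most counted of the 10 genes. It had 1957, 2036 and 1996 counts in WT and 1797, 1648 and 1660 in S89G-DMP1 NSCs, or 804 ± 18.0 CPM (SD, n = 3) and 709 ± 45.7 CPM (SD, n = 3). The groups did not overlap, although the log2 fold change was only -0.18 (standard error 0.05). Without S89G-DMP1 replicate 3, the library with the lowest *Fat1*, it was -0.14 and no longer called. *Fat3* (chr9:15910189-16501285, minus strand), known for its part in neurite and interneuron shape, had 260, 252 and 243 counts in WT and 273, 240 and 256 in S89G-DMP1, with a log2 fold change of 0.07 (standard error 0.08). *Fat4* (chr3:38886940-39011985, plus strand), the receptor for Dchs1, had 199, 197 and 205 counts in WT and 190, 165 and 189 in S89G-DMP1, with a log2 fold change of -0.10 (standard error 0.09). Neither gene separated the genotypes in CPM. *Fat4* shares 1209 exon bases with the antisense gene *C230034O21Rik*, on which 47 reads were counted over the 6 libraries. *Fjx1* (chr2:102449366-102452499, minus strand) had 325, 351 and 375 counts in WT and 293, 315 and 301 in S89G-DMP1 NSCs. Its groups just missed each other, at 141 ± 7.57 CPM (SD, n = 3) and 126 ± 7.48 CPM (SD, n = 3), and its log2 fold change of -0.16 (standard error 0.07) was not called.

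The cadherins outside the giant class also split in NSCs. *Cdh13* (chr8:118283733-119324921, plus strand), T-cadherin, has no cytoplasmic tail and is known as a receptor for adiponectin. It had 555, 633 and 535 counts in WT and 381, 374 and 428 in S89G-DMP1 NSCs. All S89G-DMP1 libraries were lower, at 164 ± 6.58 CPM (SD, n = 3) against 231 ± 16.3 CPM (SD, n = 3), a log2 fold change of -0.49 (standard error 0.07) that lay between -0.55 and -0.45 with any 1 library left out. *Cdh11* (chr8:102632095-102785642, minus strand), a type II cadherin of mesenchymal cells, had 45, 51 and 52 counts in WT and 51, 60 and 94 in S89G-DMP1 NSCs. S89G-DMP1 replicate 3, at 37.7 CPM, stood well above the other S89G-DMP1 libraries, at 21.5 and 25.7 CPM, which lay just over the WT range of 19.0 to 20.8 CPM. The log2 fold change of 0.52 (standard error 0.17) was 0.25 and not called without that library. It was also not called without WT replicate 1 or WT replicate 2. With every library kept, *Cdh11* was not called by DESeq2 (adjusted p = 0.209) or by limma on log2(TPM + 1) (adjusted p = 0.423). Genes of fibroblasts and meninges, which use *Cdh11*, had sums of 19.0 to 29.6 CPM (WT) and 18.0 to 21.5 CPM (S89G-DMP1) in NSCs. Most of each sum came from *Pdgfra* and *Foxc1*, whose means moved in opposite directions. With S89G-DMP1, *Pdgfra* was lower (mean 8.7 against 15.7 CPM, called). *Foxc1* was higher (mean 9.16 against 6.16 CPM), but its groups overlapped and it was not called. *Col1a2*, *Lum*, *Dcn*, *Tbx18* and *Aldh1a2* had no counts in any NSC library. Whether fibroblast content had a part in the *Cdh11* difference was not tested.

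N-cadherin and R-cadherin, the type I cadherins of the neuroepithelium, differed little in NSCs. *Cdh2* (chr18:16588877-16809246, minus strand), N-cadherin, is the main adherens junction cadherin of neural progenitors. It had 680, 725 and 688 counts in WT and 685, 670 and 628 in S89G-DMP1, at 281 ± 5.92 CPM (SD, n = 3) and 276 ± 20.7 CPM (SD, n = 3). The groups overlapped, and the log2 fold change was -0.03 (standard error 0.06), with the sign turning to 0.03 without S89G-DMP1 replicate 3. *Cdh4* (chr2:179442431-179899373, plus strand), R-cadherin, which can bind N-cadherin, had 672, 740 and 672 counts in WT and 616, 605 and 617 in S89G-DMP1. Its libraries did not overlap in CPM, but the log2 fold change of -0.13 (standard error 0.06) was not called. In every NSC library the genes were counted almost equally, with *Cdh4* taking 47.3% to 49.6% of the reads on the pair in S89G-DMP1 and 49.4% to 50.5% in WT.

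Cell type markers moved between the NSC genotypes beside these differences. Of the 8 astrocyte genes, 6 were tested and 3 (*Slc1a3*, *Aldh1l1* and *Gja1*) were called higher in S89G-DMP1, and the list summed to 1470 to 1518 CPM in WT and 1991 to 2043 CPM in S89G-DMP1. *Fabp7*, a gene of neural progenitors, was also called higher. The 7 mural genes summed to 176 to 178 CPM in WT and 112 to 136 CPM in S89G-DMP1. Nearly all of it came from *Cspg4*, a gene also used by oligodendrocyte progenitors. *Pdgfra*, listed with fibroblasts and meninges, was called lower. *Olig2*, listed with neural progenitors, went the other way without a call, at 1077 to 1137 CPM in WT and 1156 to 1189 CPM in S89G-DMP1. In bulk RNA, fewer cells of a type and less RNA per cell cannot be told apart, and the part of cell makeup in the cadherin differences was not tested.

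Within WT NSCs, the levels of the genes were set in order as CPM per kb, using the gene lengths behind the deposited astrocyte FPKM values. *Cdh4* came first at 182 ± 6.52 CPM per kb (SD, n = 3), followed by *Fat1* at 136 ± 3.03, *Cdh13* at 104 ± 7.34, *Cdh2* at 70.4 ± 1.48, *Fjx1* at 45.0 ± 2.42 and *Dchs1* at 30.2 ± 0.804 CPM per kb. *Fat4* (8.45 ± 0.397), *Fat3* (5.50 ± 0.379), *Cdh11* (4.71 ± 0.214) and *Dchs2* (0.260 ± 0.107) lay far lower in CPM per kb. No neighbours in this order overlapped between the 3 WT libraries. In S89G-DMP1 NSCs the ranges of *Cdh13* and *Cdh2* overlapped, as did that of *Cdh11* with those of *Fat4* and *Fat3*. The order depended on the length. With the summed length of all annotated exons, *Cdh4* (7257 bases in place of 1536) stood at rank 3 with 38.5 ± 1.38 CPM per kb, behind *Fat1* at 51.4 (50.5 to 52.7) and *Fjx1* at 45.0 ± 2.42, and *Fat3* and *Fat4* overlapped at 4.73 ± 0.326 and 4.70 ± 0.221. *Dchs2* was last with either length.

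In the astrocyte cultures, 5 of the 10 genes were higher in S89G-DMP1 by 2-fold or more (*Cdh2*, *Cdh4*, *Fat3*, *Dchs1* and *Fjx1*), and 0 were lower by that much. A count of 10 in one or the other library was reached by 15680 genes, of which 17.3% were higher and 12.8% lower by 2-fold or more, 30.1% in all. The median log2 ratio was 0.57 over the 10 genes. The genes were listed with this comparison known, and nothing is read from these shares. Ratios are of CPM scaled by TMM with a prior count of 2, and no tool was run as a test on this pair of libraries. With library size alone the median log2 ratio of all genes was 0.30 in place of 0.01, and the same counts of 5 and 0 genes were obtained. The 5 other genes had log2 ratios between -0.49 and 0.13.

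**Figure D3:**
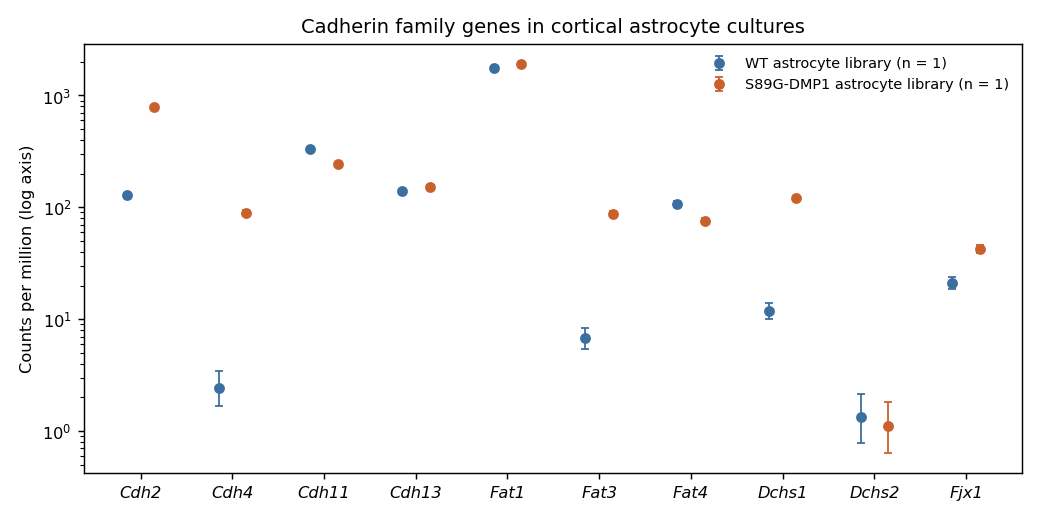
CPM of each gene in the WT and the S89G-DMP1 astrocyte library, on a log axis. Bars are 95% exact Poisson intervals of the counts and cover counting error only. *Cdh4*, *Fat3*, *Dchs1* and *Cdh2* are far higher in the S89G-DMP1 library, while *Fat1*, *Cdh13*, *Cdh11*, *Fat4* and *Dchs2* lie close together.

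The type I cadherins and 2 of the giant cadherins differed most between the astrocyte libraries. *Cdh4* had 31 counts in the WT library (95% exact Poisson interval 21.1 to 44.0) and 1293 in the S89G-DMP1 library (1223.5 to 1365.4), a log2 ratio of 5.11, or 34.6-fold. *Cdh2* had 1625 and 11415 counts, or 128 and 793 CPM, which is 6.17-fold. *Fat3* had 86 and 1263 counts, which is 12.7-fold, and *Dchs1* had 151 and 1738 counts, which is 10.0-fold. *Fjx1*, with 268 and 616 counts, was close to the 2-fold line at 2.01-fold, and its counting interval on the log2 scale ran from 0.81 to 1.23. The higher library was in each case the one with more astrocyte, neural progenitor and ependymal markers and fewer fibroblast and meningeal markers. By summed CPM it also had more neuronal (76 to 217), oligodendrocyte (46 to 86), microglial (421 to 619) and mural (3299 to 3970) markers. Its endothelial markers were fewer (195 to 72). By the same 2-fold limit, 6 of the 8 astrocyte genes were higher in that library and 1 was lower (*S100b*, 64 and 30 counts). Of the 8 neural progenitor genes 6 were higher, and 8 of the 9 fibroblast and meningeal genes were lower. The part of cell makeup in these ratios was not tested, and with 1 library each it cannot be told apart from the genotype.

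The other 5 genes differed little between the astrocyte libraries. *Fat1* was again the most counted, with 22273 reads in the WT and 27491 in the S89G-DMP1 library, or 1759 and 1909 CPM and a log2 ratio of 0.12. *Cdh13* had 1756 and 2180 counts and a log2 ratio of 0.13. *Cdh11* had 4218 and 3480 counts and *Fat4* 1361 and 1098 counts, with log2 ratios of -0.46 and -0.49 that shrank to -0.17 and -0.20 with library size alone. *Dchs2* was near the limit of counting with 17 and 16 counts, and its log2 ratio was -0.24 after TMM scaling and 0.02 by library size alone. *Cdh11*, at 333 CPM in the WT and 242 CPM in the S89G-DMP1 astrocyte library after TMM scaling, stood differently in the cell types. By CPM per kb it had rank 2 of the 10 genes in WT astrocytes and rank 9 in WT NSCs. *Cdh4* had rank 8 in WT astrocytes and rank 1 in WT NSCs. The contrast was smaller in S89G-DMP1 by the same lengths. There *Cdh11* had rank 5 in astrocytes and 8 in NSCs, and *Cdh4* rank 4 and 1.

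**Figure D4:**
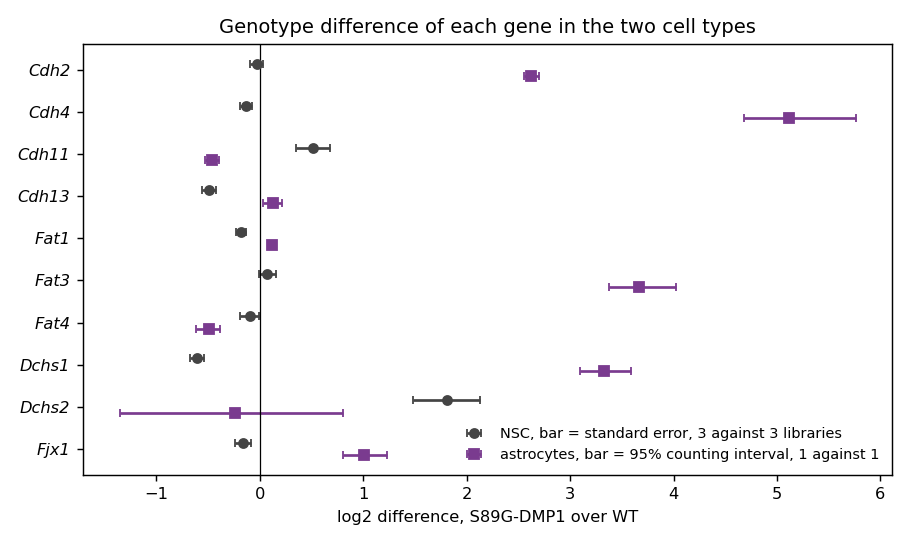
Log2 difference of S89G-DMP1 over WT for each gene, in NSCs (circles, bars give the standard error of 3 against 3 libraries) and in astrocytes (squares, bars give the 95% counting interval of 1 library against 1). *Dchs1*, *Cdh4* and *Fjx1* lie below 0 in NSCs and at 1 or above in astrocytes, and *Dchs2* is far from 0 only in NSCs.

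Ratios within a library showed how different the cadherin makeup of the cultures was. *Cdh4* took 1.87% of the reads on *Cdh2* and *Cdh4* in the WT and 10.2% in the S89G-DMP1 astrocyte library, against 47.3% to 50.5% over the 6 NSC libraries. *Fat3* took 0.385% and 4.39% of the reads on *Fat1* and *Fat3* in WT and S89G-DMP1 astrocytes, and 10.9% to 13.4% in NSCs. On *Dchs1* and *Dchs2*, the *Dchs2* share was 10.1% in the WT and 0.912% in the S89G-DMP1 astrocyte library, the reverse of its order in NSCs. The NSC and astrocyte tables were processed with different aligners and scaled separately, so shares between them are set side by side without a test.

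Genes around the cadherins were then examined in NSCs with the same test. Of 26 other cadherins and cadherin-like proteins, 9 were tested, with 0 called higher and 1 lower. That gene was *Celsr2*, a multi-pass cadherin of planar cell polarity, which fell from 243 to 184 mean CPM (log2 fold change -0.40, standard error 0.07, edgeR adjusted p = 3.7e-06). The list had a median log2 fold change of -0.14 and 11.1% of its tested genes called, where 15.8% of all tested genes were called. *Cdh1*, *Cdh3* and *Cdh5*, the cadherins of epithelium, placenta and endothelium, had no counts in any NSC library.

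Of 12 non-clustered protocadherins, 9 were tested, with 2 called higher and 1 lower (33.3% called, against 15.8% of all tested genes) and a median log2 fold change of 0.06. *Pcdh17* (log2 fold change 0.39, standard error 0.10) and *Pcdh10* (0.23, standard error 0.06), both of the delta-2 class, rose, and *Pcdh15* (-0.44, standard error 0.13), known for the tip links of hair cells, fell. Their adjusted p by edgeR was 0.0021, 0.0050 and 0.014. *Pcdh10* lost its call without S89G-DMP1 replicate 1 (or WT replicate 2), and *Pcdh15* without S89G-DMP1 replicate 3 (or WT replicate 3).

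Of 22 catenins and junction adaptors, 21 were tested, with 1 called higher and 4 lower (23.8% called, against 15.8% of all tested genes) and a median log2 fold change of -0.04. The core catenins were not called, with log2 fold changes of 0.07 (standard error 0.05) for *Ctnnb1*, 0.01 (standard error 0.07) for *Ctnna1* and -0.01 (standard error 0.12) for *Ctnnd1*. The genes that fell were *Ptprm*, an adhesive receptor phosphatase found with cadherins (-0.74, standard error 0.11), *Afdn*, which links nectins to actin (-0.51, standard error 0.07), *Pkp4*, of the p120 catenin family (-0.34, standard error 0.07), and the receptor phosphatase *Ptprf* (-0.18, standard error 0.06). Their adjusted p by edgeR was 2.5e-07, 6.85e-08, 0.000347 and 0.040. *Ctnna2*, the neural alpha catenin, rose by 0.61 on the log2 scale (standard error 0.20, adjusted p = 0.024 from edgeR). *Ctnna2* lost its call without S89G-DMP1 replicate 2, S89G-DMP1 replicate 3 or WT replicate 1. *Ptprf* lost its call without S89G-DMP1 replicate 2 or 3 or WT replicate 2 or 3.

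Of 26 partners of Fat and Dachsous in planar polarity and Hippo signaling, 24 were tested, with 1 called higher and 1 lower (8.33% called, against 15.8% of all tested genes), and the median log2 fold change was -0.05. *Amot*, an angiomotin that binds Yap, rose (0.49, standard error 0.11, adjusted p = 0.0011 from edgeR), and its relative *Amotl2* fell (-0.47, standard error 0.16, adjusted p = 0.036 from edgeR). *Amotl2* lost its call without S89G-DMP1 replicate 1, WT replicate 2 or WT replicate 3. *Yap1*, *Wwtr1* and *Vangl2* had log2 fold changes of -0.08 (standard error 0.10), -0.07 (standard error 0.10) and 0.06 (standard error 0.08) and were not called.

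**Figure D5:**
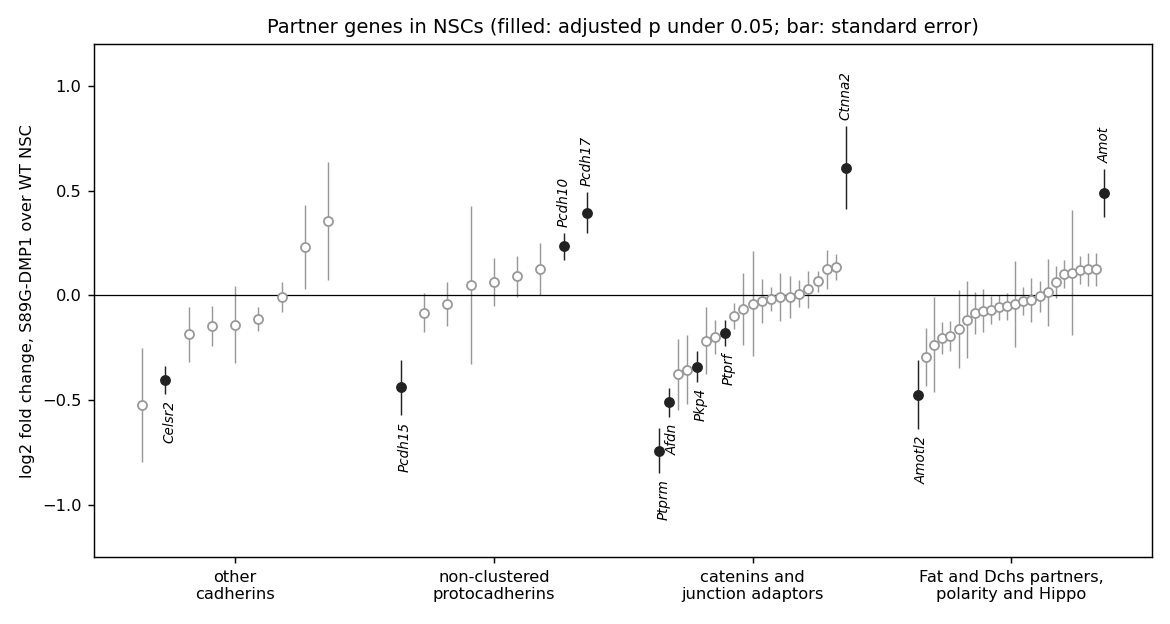
Log2 fold change of S89G-DMP1 over WT NSCs for every tested gene of the 4 partner lists, with standard errors. Filled points are genes with an adjusted p under 0.05, and their names are printed. Among the called genes *Ptprm* is lowest at -0.74 and *Ctnna2* highest at 0.61.

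The same lists were then examined between the astrocyte libraries by the 2-fold limit and without a test, so the counts do not compare with the NSC calls. Of the 17 other cadherins that reached 10 counts, 8 were higher in S89G-DMP1 by 2-fold or more and 3 lower, a median log2 ratio of 0.36, where the shares of all genes were 17.3% and 12.8% and their median 0.01. These counts were 6 and 1 on the log2(FPKM + 1) scale, 7 and 1 (median 1.29) among the 12 genes that reached 50 counts, and 5 and 1 (median 0.22) among the 12 that reached 10 counts in both libraries. *Celsr2* had 57 counts in the WT and 2514 in the S89G-DMP1 library (log2 ratio 5.23), and *Celsr1* 28 and 906 counts (4.74). *Cdh22* had 3 and 355 counts, with a counting interval of 5.14 to 8.98 on the log2 scale. *Cdh5*, the endothelial cadherin, had 1917 and 23 counts (-6.44). Of the 7 endothelial genes, *Cdh5* included, *Tek* (32 and 17 counts), *Emcn* (28 and 12) and *Pecam1* (16 and 7) were also lower by 2-fold or more, *Kdr* (76 and 184) was higher by that much, *Flt1* (404 and 790) had a log2 ratio of 0.78, and *Cldn5* had no counts in either library. *Cdh17* had 19 and 5 counts (-1.74) and *Cdh18* 26 and 1. Of 10 non-clustered protocadherins, 5 were higher by that much (median log2 ratio 0.61), with *Pcdh10* at 33 and 2083 counts (5.72), *Pcdh17* at 32 and 546 (3.83) and *Pcdh8* at 0 and 11. *Pcdh7* was the 1 gene of the list lower by 2-fold or more (-1.33). The count of 5 was 3 on the log2(FPKM + 1) scale (median 0.34), and 4 where 50 counts, or 10 counts in both libraries (median 0.13), were asked for.

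The 21 catenins and junction adaptors counted in astrocytes (median log2 ratio 0.10) held 5 genes higher by 2-fold or more and 1 lower. After TMM scaling, 28.6% of this list differed by 2-fold or more, against 30.1% of all genes. By library size alone the counts became 6 and 0. *Ctnna2* (67 and 1193 counts, log2 ratio 3.93), *Ptprf* (470 and 4281 counts, 7.98-fold) and *Ctnnd2* (log2 ratio 2.80) had the largest ratios, and *Lima1*, an actin-binding protein, the lowest (-1.19). The core catenins *Ctnnb1* (0.18) and *Ctnna1* (0.24) had small log2 ratios. Among 26 partners of Fat and Dachsous (median log2 ratio 0.23), 3 were higher by that limit (*Lix1* at 3.33, *Fzd3* at 2.91 and *Vangl2* at 1.70). The 2 lower genes were *Prickle1* (-1.84) and *Yap1* (-1.27), and by library size alone 1 gene was lower. After TMM scaling, 19.2% of this list differed by 2-fold or more, below the share of all genes.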

How the data were processed

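RNA was sequenced from 6 NSC and 2 astrocyte libraries. For astrocytes the authors removed low-quality reads, aligned with TopHat2 2.0.9 on a Bowtie2 2.0.6 index, and deposited counts per gene and FPKM values, which equal counts divided by library total and 1 length per gene. For NSCs the submitters' processing notes name HISAT2, StringTie, featureCounts and GRCm38, and counts and TPM values were deposited. The program that counted the astrocyte reads and their genome build are not given in the sources used here. Whether strand was used in counting is not stated.

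In R 4.3.3, edgeR 4.0.16 tested NSC counts by quasi-likelihood after filterByExpr and TMM, with genotype as the only term, and p-values were adjusted by Benjamini-Hochberg across the 11194 genes kept. The standard error is the log2 fold change divided by the root of the F statistic. DESeq2 1.42.0 and limma 3.58.1 served as alternatives. For astrocytes, CPM values after TMM gave log2 ratios (prior count 2), without a test, for each gene that reached 10 counts in one or the other library. Intervals of counts cover counting error only. The procedure was tested on simulated data.

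The 10 genes and all lists were chosen with earlier results of these data known. All 10 genes are named. From each list, up to 6 genes called in NSCs and, in astrocytes, up to 3 genes per direction with the largest ratio of at least 2-fold are named, and *Cdh1*, *Cdh3*, *Yap1*, *Wwtr1*, *Vangl2* in NSCs, the core catenins and most single marker genes were named after their values were seen. Added after the data were seen was a ranking by summed exon length. Positions are from GENCODE M21 (GRCm38). A marker result is not reported here.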

Additional observations from a re-analysis of the deposited data

Results flagged for a closer look

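For 3 genes, the libraries of the genotypes did not overlap in NSCs and the astrocyte libraries differed at least 2-fold in the opposite direction. The share of all genes that meet both rules was not computed. Taken singly, 30.7% of all genes tested in NSCs did not overlap. In astrocytes, 30.1% of all genes counted differed at least 2-fold. The genes were listed with these differences known, so the count of 3 supports nothing by itself. *Cdh4* had a log2 fold change of -0.13 in NSCs and a log2 ratio of 5.11 in astrocytes. *Dchs1* had -0.61 and 3.32, and *Fjx1* -0.16 and 1.01. In each of the 3 cases the 3 S89G-DMP1 NSC libraries lay below the 3 WT ones and the single S89G-DMP1 astrocyte library lay above the WT one. The difference between the cell types was not tested, since the astrocytes have 1 library per genotype. *Cdh4* and *Fjx1* were not called in NSCs.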

How the results depend on the processing

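The 3 lower calls among the 10 genes in NSCs were also 3 with DESeq2, other scalings, other filters and the replicate block, 2 to 3 with 1 library left out, and 1 with limma on log2(TPM + 1) or at least 1.5-fold. The 2 higher calls became 1 with DESeq2, with limma, with at least 10 counts in every library (where *Dchs2* was not tested) and at 1.5-fold, and 1 to 2 with 1 library left out. *Cdh2* ranged from -0.061 to 0.033 with 1 library left out, reversed to 0.033 without S89G-DMP1 replicate 3. For other cadherins the 1 lower call became 0 with limma and at 1.5-fold, and was 1 in each fit with 1 library left out. For protocadherins the 2 higher calls became 0 with limma and at 1.5-fold and ranged from 1 to 2 with 1 library left out, and the 1 lower call became 0 with DESeq2, limma and at 1.5-fold and ranged from 0 to 1. For catenins and adaptors the 1 higher call became 0 with DESeq2 and limma and ranged from 0 to 1, and the 4 lower calls became 3 with DESeq2 or no filter, 1 with limma and at 1.5-fold, and ranged from 3 to 4. For Fat and Dachsous partners the 1 higher call became 0 with limma and at 1.5-fold, and the 1 lower call became 0 with DESeq2, limma and at 1.5-fold, 2 with library size alone, with at least 10 counts in every library and with the replicate block, and ranged from 0 to 2 with 1 library left out. The replicate block changed no other count among these lists. It called 1016 genes lower and 829 higher over all genes, against 981 and 792 without it. The numbers do not pair the libraries, since deviations of same-numbered libraries correlated between -0.017 and 0.028. DESeq2 called 503 genes lower and 348 higher, and limma on TPM 96 and 26. In astrocytes the 5 higher genes were 4 at 4-fold and 5 in each other setting. Depth limits *Dchs2* in both cell types, and nothing but counting error is known for astrocytes.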

Other observations

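The deposited NSC TPM values did not follow the counts for every gene, and 29 genes with over 50 mean counts were listed at 0 TPM in every NSC library. *Cdh4* had 616, 605 and 617 counts in the S89G-DMP1 NSC libraries, but TPM values of 111, 105 and 47.5. In the WT libraries its TPM values were 122, 128 and 109. *Cdh13* had 161, 160 and 172 CPM in the S89G-DMP1 libraries but 106, 105 and 90.2 TPM.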
